A study of Mus musculus with 20 samples.

Results

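Regulators of G protein signaling (RGS) were described across unstimulated and cytokine-treated mouse Tregs and CD8+ T cells. The set held the 8 genes Rgs1, Rgs2, Rgs3, Rgs10, Rgs14, Rgs16, Rgs18 and Rgs19, picked by symbol from the 23992 gene symbols in the data. Earlier results of these data were known when the set was chosen, so its counts beside shares of all genes are descriptive. Where a gene had several transcripts, the one with the highest read total in the 20 libraries stood for it. Only Rgs3 had several transcripts to choose from (3, which share reads). Tregs are regulatory CD4+ T cells marked by the transcription factor Foxp3. They had been purified as GFP+ CD4+ cells from B6-Foxp3EGFP mice, in which GFP marks Foxp3 expression, and CD8+ T cells had been purified with a magnetic kit from C57BL/6J mice, although the sample labels give C57BL/6N as the strain. Both came from spleen and lymph node, and the ages of the mice are not given in the sources used here. Cells were either unstimulated (labelled 0 hr) or received 200 nM IL-2 or 200 nM IL-2-REH, a variant of IL-2 with 3 amino acid substitutions that acts as a partial agonist, for 90 min or 4 hr ex vivo. Each of the 5 Treg groups had 3 libraries, numbered 1 to 3, and each of the 5 CD8+ groups had 1 library, so CD8+ values have no replicate error. The labels do not say whether the Treg libraries came from separate mice or cultures, so p-values measure the spread between these libraries, which may be technical. Cells kept in culture without cytokine for 90 min or 4 hr were not analysed here, so cytokine and time in culture cannot be told apart in any comparison with unstimulated cells.

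RGS proteins bind the GTP-loaded alpha subunit of a heterotrimeric G protein and speed up its GTP hydrolysis, which shortens the signal from G protein-coupled receptors. Lymphocytes use such receptors, chemokine receptors above all, to enter, cross and leave lymphoid tissue, and several RGS genes respond quickly to activation of the cell. Of the set, Rgs1, Rgs2, Rgs3, Rgs16 and Rgs18 belong to the subfamily of small RGS proteins (R4). Rgs10 and Rgs14 belong to the R12 subfamily and act on Gi, and Rgs19, also called GAIP, belongs to the RZ subfamily.

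In the RefSeq annotation of GRCm38.p6, Rgs2 (chromosome 1, 143999338 to 144004149), Rgs1 (chromosome 1, 144244669 to 144249104) and Rgs18 (chromosome 1, 144752683 to 144775427) lay near each other on the minus strand. Rgs16 lay farther along the chromosome on the plus strand (153740353 to 153745468), and exons of the antisense gene Gm28513 overlap it. Rgs3 lay on chromosome 4 (62559835 to 62703019), Rgs10 on chromosome 7 (128373621 to 128419506), Rgs14 on chromosome 13 (55369732 to 55384687) and Rgs19 on chromosome 2 (181688419 to 181694537). The sources do not say whether counting used the strand, so part of the reads of Rgs16 is uncertain. The RefSeq promoter table held 8 starts for 5 of the 8 genes (Rgs2, Rgs3, Rgs10, Rgs16 and Rgs19). The 250 bases before the start are shown for Rgs2 and Rgs16, which share subfamily and chromosome. These 2 were picked with their Treg values known. Rgs2 lay higher with IL-2-REH than with IL-2 at each time, and Rgs16 was near equal. Both were lower at 4 hr than at 90 min with each cytokine. Whether the promoter motifs have a part in these values was not tested. Capitals mark GC boxes (GGGCGG, on the other strand CCGCCC) and CRE half-sites (TGACG, on the other strand CGTCA).
Rgs2, chr1:144004150-144004399, minus strand: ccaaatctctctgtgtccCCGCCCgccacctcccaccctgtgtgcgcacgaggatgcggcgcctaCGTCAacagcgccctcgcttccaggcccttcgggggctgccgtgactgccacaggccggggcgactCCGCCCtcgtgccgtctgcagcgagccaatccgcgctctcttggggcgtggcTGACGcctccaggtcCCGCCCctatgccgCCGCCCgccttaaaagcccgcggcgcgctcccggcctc
Rgs16, chr1:153740103-153740352, plus strand: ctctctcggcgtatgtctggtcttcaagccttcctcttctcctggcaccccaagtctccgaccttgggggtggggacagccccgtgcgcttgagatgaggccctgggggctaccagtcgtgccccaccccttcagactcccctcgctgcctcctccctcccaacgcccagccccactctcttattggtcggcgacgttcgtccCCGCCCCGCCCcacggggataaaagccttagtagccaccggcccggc
Rgs2 held 4 GC boxes and 2 CRE half-sites in this window, and Rgs16 held 2 overlapping GC boxes and 0 CRE half-sites. Of all 32851 promoter windows of the same length, 32.7% held a GC box and 17.8% a CRE half-site on either strand. The STAT5 motif TTCNNNGAA, present in 7.02% of all windows, was in 0 of the 8 windows of these genes, as was the AP-1 motif TGANTCA, present in 6.75%. TATAAA was in both Rgs3 windows and in 12.4% of all windows. These matches describe letters, not bound sites.

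Reads on genes ranged from 20201392 to 63903764 per Treg library and from 38201667 to 45189835 per CD8+ library. The labelled cell types matched their markers. The summed RPKM of 5 Treg markers was 505 to 1060 in Tregs and 12.6 to 28.3 in CD8+ libraries, and that of Cd8a and Cd8b1 was 4.46 to 12.7 in Tregs and 282 to 728 in CD8+ libraries. Treg libraries of replicate 3 held more erythroid marker RNA (151 to 260) than those of replicates 1 and 2 (5.73 to 22.4), and the 5 macrophage markers summed to 6.12 to 12.9 in replicate 1 against 17.7 to 54.2 in replicates 2 and 3. In each list, 0 markers were at 0 in every library. The library of unstimulated Tregs labelled replicate 1 stood apart. In 3288 genes, both other unstimulated libraries lay outside the range of the 12 stimulated libraries, and in 83.7% of these the replicate 1 library lay inside it. For replicates 2 and 3, the same share was 33.3% of 348 and 23.0% of 300 genes. Values against unstimulated Tregs are therefore also given without that library for each gene of the set except Rgs18, but not for marker genes or genes of other lists. Its part in the results beyond these values was not tested. In these bulk libraries, fewer cells of a type and less RNA per cell cannot be told apart.

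The RGS genes covered a wide range of levels in Tregs. RPKM scales reads to exon length and to mapped reads, so that levels of different genes can be set side by side. In unstimulated Tregs the order by mean RPKM was Rgs1 (261.5 ± 121), Rgs10 (153 ± 27.0), Rgs2 (122.9 ± 95.6), Rgs16 (59.5 ± 36.6), Rgs14 (30.6 ± 15.6), Rgs19 (25.8 ± 9.02), Rgs3 (15.9 ± 9.32) and Rgs18 (0.302 ± 0.258) (SD, n = 3 each). Ranges of neighbours in this order overlapped down to Rgs3, and only Rgs18 lay clear below its neighbour. With IL-2 at 90 min Rgs1 alone led, at 370.4 ± 95.6, with no overlap with Rgs10 (109.1 ± 7.45). With IL-2-REH at 4 hr Rgs2 (108 ± 8.60), Rgs1 (104.6 ± 13) and Rgs10 (101.9 ± 26.2) overlapped at the top.

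**Figure D1:**
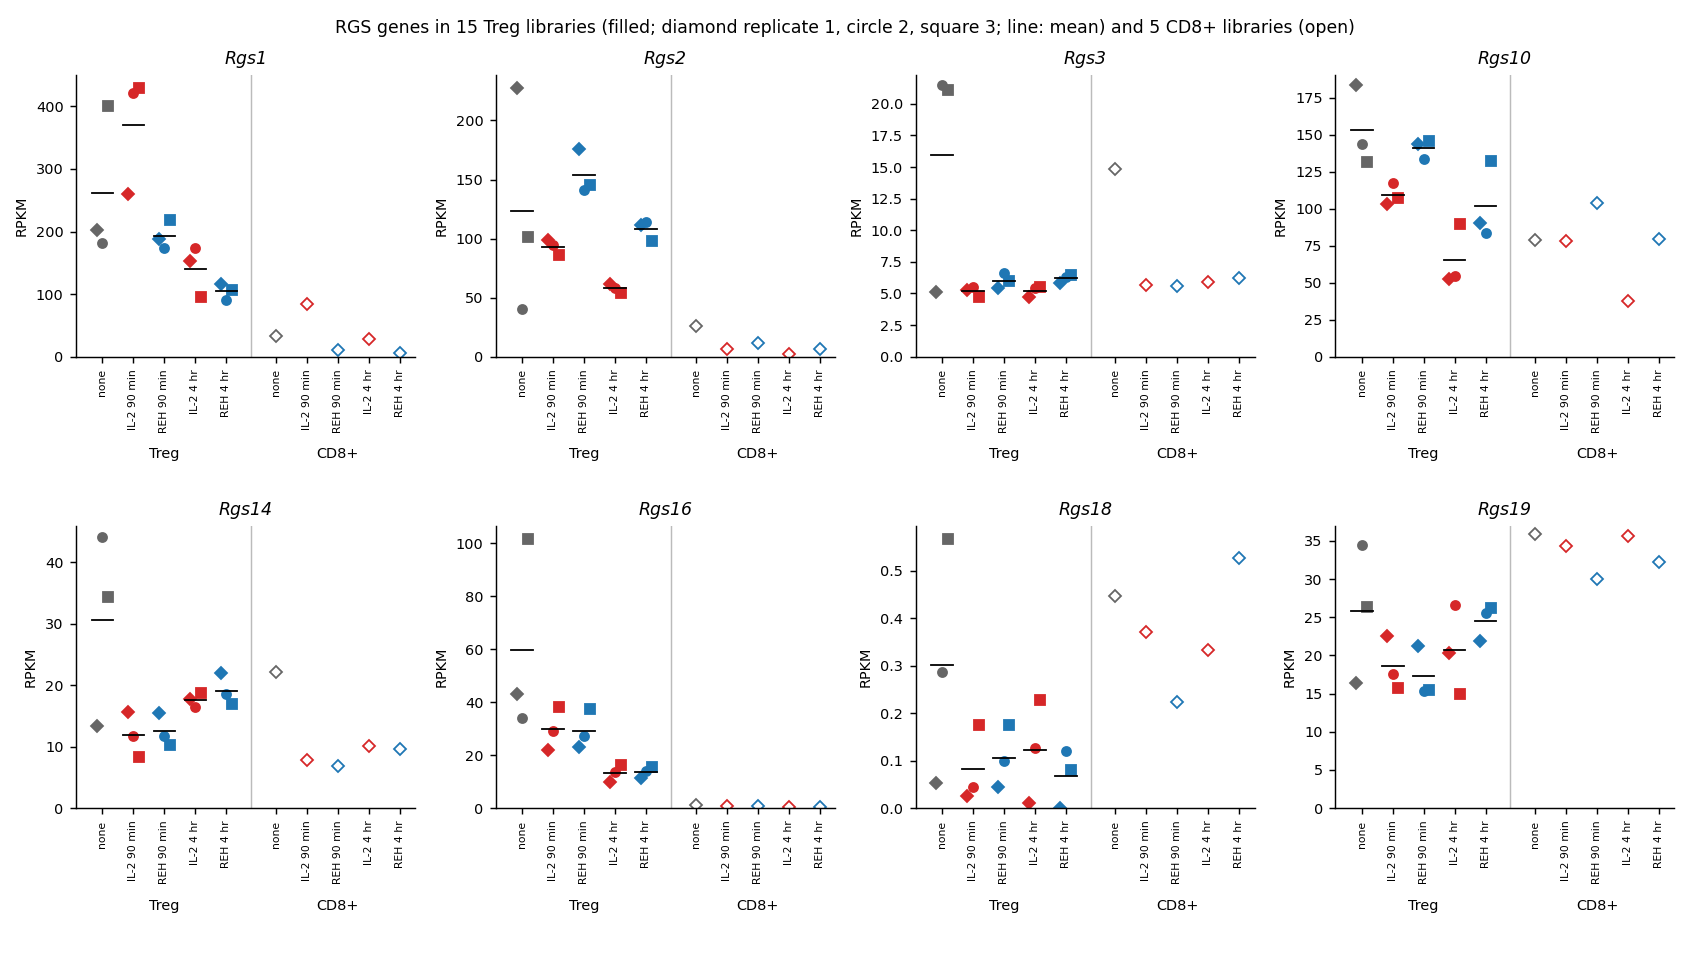
RPKM (vertical axes, linear, from 0) of each RGS gene in the 15 Treg libraries (filled; diamond, circle and square are replicates 1, 2 and 3, the line is the mean) and the 5 CD8+ libraries (open), by cytokine and time. Grey is unstimulated, red IL-2 and blue IL-2-REH; Rgs16 in CD8+ cells stayed at 1.04 or less while its Treg values were 10.03 to 102, and the replicate 1 diamond of unstimulated Tregs lay near the stimulated libraries for Rgs3 and Rgs14.

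Against unstimulated Tregs, the set was mostly lower after stimulation, and Rgs16, which limits chemokine receptor signaling in activated T cells, and Rgs3 fell with IL-2 at 4 hr. All 8 genes passed the filter on low counts. With IL-2 at 4 hr, 2 of 8 were called by edgeR at an adjusted p under 0.05, both lower, where 2.27% of all 15009 genes were called and 1.1% were called lower, and 3 of 8 once replicate numbers were fitted as blocks (6.92% of all genes). All 8 fold changes were below 0, with a median log2 fold change of -1.12 against -0.002 over all genes. Beside this, the 3 CD3 marker genes summed to 464 to 699 RPKM in unstimulated Tregs and 245 to 351 with IL-2 at 4 hr, where Cd3g fell (-1.11, edgeR adjusted p = 0.0357). Of the 5 Treg markers, Cd4 fell (-0.99, adjusted p = 0.00875), and Foxp3 and Il2ra rose (1.40 and 1.15, adjusted p = 0.011 and 0.0407). The 5 macrophage markers had a median log2 fold change of -1.69, with 0 called by edgeR and 4 called lower with the block. Their part in the RGS values was not tested. With IL-2-REH at 4 hr, 0 of 8 were called by edgeR (0.313% of all genes, 0.153% lower), although 4 had an unadjusted p under 0.05 (13.3% of all genes). DESeq2 called 3 (565 over all genes), limma 1 (25) and edgeR with the block 2 (3.03% of all genes). The median was -0.97 against 0.01 over all genes. At 90 min, edgeR called 0 of 8 after IL-2 (0.853% of all genes, 0.0733% lower) and likewise 0 of 8 for IL-2-REH (0.0933%). In each of these, 2 had an unadjusted p under 0.05 (13.8% and 11.4% of all genes). DESeq2 called 2 and 1 (553 and 113 over all genes) and limma 0 and 0 (108 and 0). EdgeR with the block called 1 (1.83% of all genes) and 0 (0.213%). The medians at 90 min were -0.60 and -0.65, against -0.06 and -0.05 over all genes. Without unstimulated replicate 1, edgeR called 2 and 4 of 8 at 90 min and 3 and 4 of 8 at 4 hr (IL-2 first, then IL-2-REH), where 12.9%, 12.1%, 8.87% and 6.93% of all genes tested were called. RPKM ranges did not overlap with those of unstimulated Tregs for 1 and 0 of 8 at 90 min (IL-2 first, then IL-2-REH) and 3 and 2 of 8 at 4 hr, where 12.7%, 9.97%, 14.7% and 13.7% of all genes did not. The 4 comparisons share the same unstimulated libraries.

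Rgs16 had the largest fitted fold change of the well-expressed members in Tregs. Its RPKM in unstimulated replicates 1, 2 and 3 was 43.1, 33.97 and 102. With IL-2 it was 22.1, 29.1 and 38.2 at 90 min and 10.03, 13.6 and 16.3 at 4 hr. With IL-2-REH it was 23.2, 27.1 and 37.5 at 90 min and 11.4, 14.1 and 15.7 at 4 hr. Both cytokines thus gave near-equal values at each time, and the 4 hr ranges lay below every other Treg library. With IL-2 at 4 hr the log2 fold change was -2.11 (SE 0.437, edgeR adjusted p = 0.0253, and -2.02 with adjusted p = 0.000687 with the block). It ranged from -2.44 to -1.47 over 14 alternatives, with adjusted p between 8.38e-05 and 0.305. The call was lost without unstimulated replicate 3 (-1.47, edgeR adjusted p = 0.107), which held the highest value, and without each of the 3 IL-2 libraries at 4 hr (adjusted p between 0.0525 and 0.0958). For IL-2-REH the 4 hr value was -2.14 (SE 0.437) on the log2 scale, not called by edgeR without the block (adjusted p = 0.061) and called with it (-2.02, adjusted p = 0.00142). With unstimulated replicate 1 left out, the 4 hr values were -2.25 for IL-2 and -2.28 for IL-2-REH, both called by edgeR (adjusted p = 0.012 and 0.014), and those at 90 min were -0.98 and -1.02 (adjusted p = 0.191 and 0.183). From 90 min to 4 hr the log2 fold change was -1.26 (SE 0.426) with each cytokine, lower in 3 of 3 pairs each, with edgeR adjusted p = 0.219 for IL-2 and 0.256 for IL-2-REH.

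Rgs3, an R4 member made in several isoforms, had nearly the same level in all 12 stimulated Treg libraries. Its RPKM was 5.15, 21.5 and 21.1 in unstimulated replicates 1, 2 and 3. In the stimulated libraries it lay between 4.73 and 6.59. The replicate 1 library therefore lay among the stimulated libraries and the other two well above them. With IL-2 at 4 hr the log2 fold change was -1.49 (SE 0.348, edgeR adjusted p = 0.0418, and -1.38 with adjusted p = 0.014 with the block). It was -1.88 without unstimulated replicate 1 (adjusted p = 0.000168), and the call was lost without each one of the other 5 libraries compared (edgeR adjusted p between 0.102 and 0.195), with limma (adjusted p = 0.0899) and with the longest transcript (adjusted p = 0.0526). With IL-2 at 90 min the log2 fold change was -1.43 (SE 0.347, edgeR adjusted p = 0.0839), called with the block (-1.33, adjusted p = 0.035). With IL-2-REH it was -1.21 at 90 min (adjusted p = 0.38) and -1.31 at 4 hr (adjusted p = 0.132 from edgeR, and 0.0425 with the block). Without unstimulated replicate 1, Rgs3 was called in all 4 comparisons, with log2 fold changes from -1.88 to -1.60.

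Rgs14, which carries a GoLoco motif for inactive Gi besides its RGS domain, showed the same split among unstimulated libraries, with an RPKM of 13.4 in replicate 1, 44.0 in replicate 2 and 34.3 in replicate 3. Values with IL-2 were 15.6, 11.7 and 8.33 at 90 min and 17.7, 16.4 and 18.7 at 4 hr. With IL-2-REH they were 15.5, 11.8 and 10.2 at 90 min and 21.9, 18.5 and 16.9 at 4 hr. Libraries at 4 hr were thus all above those at 90 min of the same cytokine, with log2 fold changes of 0.54 (edgeR adjusted p = 0.342) with IL-2 and 0.50 (adjusted p = 0.425) with IL-2-REH. Against unstimulated cells, Rgs14 had 90 min log2 fold changes of -1.20 for IL-2 and -1.12 for IL-2-REH (edgeR adjusted p = 0.0766 and 0.346). Without unstimulated replicate 1 these were -1.52 and -1.44 (adjusted p = 0.000514 and 0.000867), and those at 4 hr were -0.98 and -0.94 (adjusted p = 0.00976 and 0.0145).

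Rgs1, which restrains the migration of lymphocytes towards chemokines, had the highest mean of the set in 4 of the 5 Treg groups, and Rgs2 had it with IL-2-REH at 4 hr. Its RPKM in unstimulated replicates 1, 2 and 3 was 203, 181 and 401. With IL-2 it was 260.1, 422 and 429.6 at 90 min and 153, 173 and 94.6 at 4 hr. With IL-2-REH it was 188, 174 and 219 at 90 min and 116, 90.5 and 107 at 4 hr. At 90 min all IL-2 values lay above all IL-2-REH values, whereas at 4 hr the ranges overlapped. Against unstimulated cells the log2 fold change was 0.66 (SE 0.351) with IL-2 at 90 min and -0.87 (SE 0.352) at 4 hr, and -0.30 (SE 0.350) with IL-2-REH at 90 min and -1.33 (SE 0.356) at 4 hr, with edgeR adjusted p between 0.132 and 0.768. Without unstimulated replicate 1 the IL-2-REH value at 4 hr was -1.43 (adjusted p = 0.044), and that at 90 min was -0.40 (adjusted p = 0.535). The IL-2 values were then 0.56 and -0.97 (adjusted p = 0.381 and 0.137). From 90 min to 4 hr with IL-2, the log2 fold change was -1.53 (SE 0.357), lower in 3 of 3 pairs, with an adjusted p of 0.163 from edgeR, 0.0697 with the block and 0.00382 from DESeq2.

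Rgs2, which prefers Gq among the alpha subunits, was the member for which the unstimulated libraries differed most among the well-expressed ones, by 5.67-fold. Its RPKM was 228, 40.1 and 101 in unstimulated replicates 1, 2 and 3. With IL-2 it was 98.4, 94.9 and 85.9 at 90 min and 61.6, 58.6 and 54.1 at 4 hr. With IL-2-REH it was 176, 141 and 145 at 90 min and 112, 114 and 98.2 at 4 hr. The stimulated groups were tight, and IL-2-REH libraries lay above IL-2 libraries at each time without overlap. Against unstimulated Tregs, its sign turned when 1 unstimulated library was left out in 3 of the 4 comparisons. With IL-2 at 90 min the log2 fold change was -0.35 (SE 0.448, edgeR adjusted p = 0.78) and 0.57 without unstimulated replicate 1 (adjusted p = 0.274). With IL-2-REH it was 0.36 at 90 min (adjusted p = 0.788), which became 1.28 without that library (adjusted p = 0.0235), and -0.28 at 4 hr (adjusted p = 0.842), which became 0.64 (adjusted p = 0.244). With IL-2 at 4 hr it was -1.10 (SE 0.453, adjusted p = 0.227) and -0.18 without that library (adjusted p = 0.733), below 0 in all 14 alternatives (-1.55 to -0.18, adjusted p between 0.0241 and 0.919).

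Rgs10, which acts on Gi alpha subunits, had RPKM values of 183, 144 and 132 in unstimulated Tregs. With IL-2 it was 103, 117 and 107 at 90 min and 52.4, 54.7 and 89.3 at 4 hr. With IL-2-REH it was 144, 133 and 146 at 90 min and 90.6, 83.3 and 132 at 4 hr. IL-2 values were below all unstimulated values at both times, and those at 4 hr were also below all values at 90 min. The IL-2 value at 4 hr was -1.15 (SE 0.299) on the log2 scale, which passed the threshold with the block (-1.21, adjusted p = 0.0161) but not in the edgeR fit without it (adjusted p = 0.0643). With IL-2-REH the log2 fold changes were 0.004 at 90 min and -0.59 at 4 hr (edgeR adjusted p = 0.998 and 0.421). With unstimulated replicate 1 left out, the values for IL-2 were -0.10 at 90 min and -0.90 at 4 hr (adjusted p = 0.856 and 0.0841), and those with IL-2-REH were 0.26 and -0.34 (adjusted p = 0.616 and 0.512).

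Rgs19, which binds Gi and Gz alpha subunits, lay between 14.98 and 34.5 RPKM in all Treg libraries, with log2 fold changes of -0.41 to -0.03 against unstimulated cells (edgeR adjusted p between 0.444 and 0.962). Its unstimulated values of 16.4, 34.5 and 26.4 spanned most of that range. Leaving out unstimulated replicate 1, Rgs19 was called with IL-2-REH at 90 min (-0.59, edgeR adjusted p = 0.0456), and the other values were -0.49 to -0.22 (adjusted p between 0.0906 and 0.473). Rgs18, best known from platelets and their precursors, was at or near the limit of detection. It had 0 to 64 reads per Treg library (RPKM 0 to 0.566) and 26 to 71 reads per CD8+ library (0.225 to 0.527). In the 1 library with 0 reads (IL-2-REH at 4 hr, replicate 1), a count of 0 allows up to 3 reads, and no fold is given for that group. The 5 platelet markers summed to 0.587 to 4.8 RPKM in Tregs and 4.35 to 7.03 in CD8+ libraries. Over all libraries, both these sums and the Rgs18 levels overlapped between the cell types. Of the single markers, Ppbp alone did not (up to 0.571 in Tregs, from 1.33 in CD8+ libraries). At each condition the CD8+ sum of the 5 platelet markers lay above the 3 Treg sums, most narrowly with IL-2-REH at 4 hr (5.06 against at most 4.8). At 4 of 5 conditions the CD8+ value of Rgs18 lay above the 3 Treg values, a count given without its share of all genes. The part of platelet RNA in Rgs18 was not tested.

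IL-2-REH was set against IL-2 at the same dose and time to ask where the partial agonist left RGS transcripts at another level. In Tregs, edgeR called 0 of 8 at 90 min (0.0133% of all genes) and 0 of 8 at 4 hr (0.0267%). At an unadjusted p under 0.05 there were 1 and 0 (0.993% and 3.72% of all genes). DESeq2 called 0 at each time (15 and 58 over all genes), as did limma (0 and 0) and the block (0.0133% and 0.0666% of all genes). These are 16 pairs of values in all, with p-values adjusted over all genes tested. Ranges of the 2 cytokines did not overlap for 3 of 8 at 90 min (Rgs1, Rgs2 and Rgs10), where 5.46% of all genes did not, and for 2 of 8 at 4 hr (Rgs2 and Rgs3), where 7.79% did not. At 90 min Rgs1 was lower with IL-2-REH in 3 of 3 pairs, by a log2 fold change of -0.96 (95% interval -1.72 to -0.21, unadjusted p = 0.0163, edgeR adjusted p = 1.0). At 4 hr the value was -0.46 (-1.22 to 0.29), lower in 2 of 3 pairs. Rgs2 was higher with IL-2-REH in 3 of 3 pairs at each time, by 0.72 at 90 min (-0.25 to 1.68) and 0.82 at 4 hr (-0.14 to 1.79) on the log2 scale, with an edgeR adjusted p of 1.0 each. The spread behind all these intervals was pooled over every Treg group, the unstimulated one included. For Rgs2 the SD was 95.6 RPKM in unstimulated Tregs and 3.81 to 18.9 in the stimulated groups. Rgs10, like Rgs2, was higher in 3 of 3 pairs at each time, by 0.36 (-0.27 to 0.995) and 0.56 (-0.08 to 1.19). For Rgs16 the log2 differences were -0.04 at 90 min (-0.94 to 0.86) and -0.03 at 4 hr (-0.93 to 0.87), and for Rgs14 they were 0.08 (-0.53 to 0.69) and 0.04 (-0.57 to 0.65). The difference between the cytokines did not change from 90 min to 4 hr by an amount edgeR called in any of the 8 (0.0% of all genes). For this change, 0 of 8 had an unadjusted p under 0.05 (0.313% of all genes), and DESeq2 and limma each called 0.

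**Figure D2:**
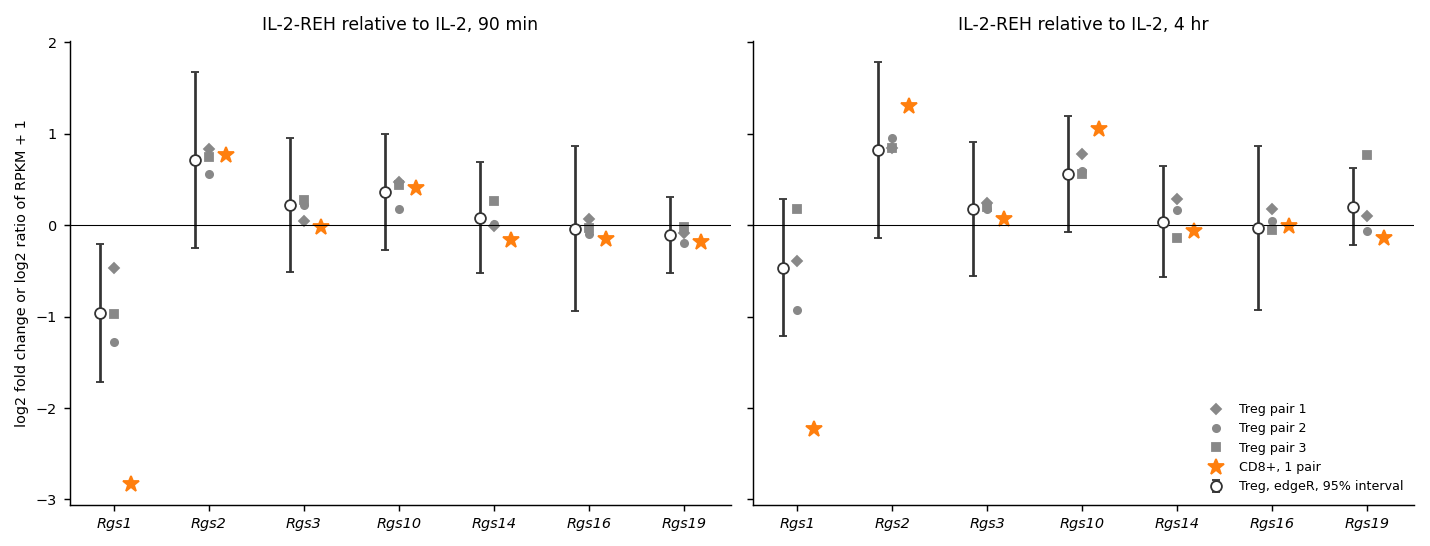
Difference between the cytokines (IL-2-REH relative to IL-2) for 7 RGS genes, at 90 min (left) and 4 hr (right); Rgs18 is left out for its low counts. Open circles give the edgeR log2 fold change in Tregs with its 95% interval, grey symbols the log2 ratio of RPKM + 1 in the 3 same-numbered pairs, and orange stars that ratio in the single CD8+ pair; Rgs1 lay at -2.83 and -2.23 in CD8+ cells, below the 3 Treg pairs, and Rgs2 and Rgs10 lay above 0 in all pairs of both cell types.

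With time, 5 of 8 genes had ranges without overlap between 90 min and 4 hr of IL-2 (17.1% of all genes) and 6 of 8 with IL-2-REH (19.1%). Rgs1, Rgs2, Rgs10 and Rgs16 were lower at 4 hr in 3 of 3 pairs with each cytokine, and Rgs14 was higher in 3 of 3. Rgs19 was the sixth gene with IL-2-REH, higher at 4 hr by 0.38 on the log2 scale. EdgeR called 0 of 8 with each cytokine (0.0% of all genes each), with 3 and 2 at an unadjusted p under 0.05 (17.0% and 14.6% of all genes). DESeq2 called 1 (Rgs1 with IL-2) and 0 (382 and 251 over all genes), and limma 0 and 0 (3 and 0). The block gave 0 and 0 (0.386% and 0.04% of all genes).

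**Figure D3:**
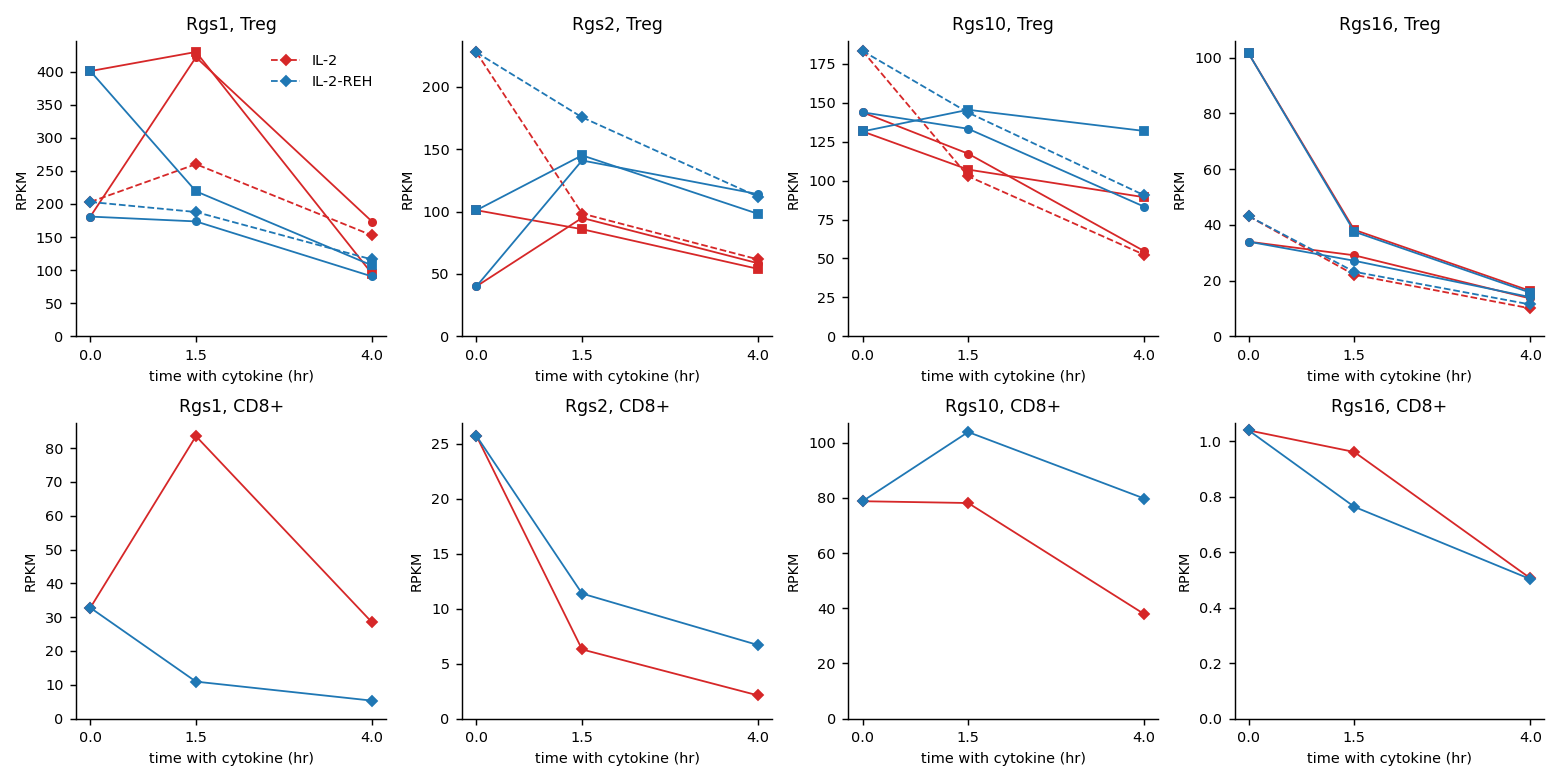
RPKM (vertical axes, linear, from 0) of Rgs1, Rgs2, Rgs10 and Rgs16 against time with cytokine (hr), with IL-2 in red and IL-2-REH in blue, in Tregs (top, a line per replicate number, dashed for replicate 1) and CD8+ cells (bottom, single libraries). At 4 hr all 4 genes lay below their 90 min value in every line; in CD8+ cells the Rgs1 line of IL-2 peaked at 83.5 while that of IL-2-REH was 10.9.

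In CD8+ T cells, 4 of the 6 counted genes were past 2-fold against the unstimulated library in each of the 4 comparisons, most of them lower. The values are log2 ratios of RPKM + 1 between single libraries, over the 10021 genes with a mean of at least 1 RPKM. Rgs16 and Rgs18 did not reach that mean and were not counted. Past 2-fold were 7.24% of all genes with IL-2 at 90 min, 4.71% with IL-2 at 4 hr, 8.57% with IL-2-REH at 90 min and 6.11% with IL-2-REH at 4 hr. Rgs3 and Rgs14 were lower in all 4 comparisons. Rgs3 was at 14.9 RPKM in the unstimulated library and 5.61 to 6.22 in the other 4, with log2 ratios of -1.26 to -1.14. Rgs14 was at 22.1 unstimulated and 6.81 to 10.1 in the other 4. Rgs2 was also lower in all 4, from 25.7 unstimulated to 6.28 and 2.1 with IL-2 and 11.4 and 6.68 with IL-2-REH at 90 min and 4 hr. Rgs1 was at 32.8 unstimulated. It was 83.5 with IL-2 at 90 min and 28.4 at 4 hr, and 10.9 and 5.30 with IL-2-REH. Relative to unstimulated cells its 90 min log2 ratio was thus 1.32 for IL-2 and -1.50 for IL-2-REH. Rgs10, at 78.8 unstimulated, was past 2-fold only with IL-2 at 4 hr (37.9, log2 ratio -1.04). With the ratios centred on their median over all genes, this value was -0.97 and that of Rgs14 was -0.98, both inside 2-fold. The median over all genes was -0.12 for IL-2-REH at 90 min, and relative to it Rgs2 was at -0.99 and Rgs1 at -1.38. Beside these values, Cd8a and Cd8b1 summed to 728 RPKM in the unstimulated CD8+ library and 282 to 493 in the stimulated ones, and the 3 CD3 markers to 751 and 411 to 486. Their part in the RGS ratios was not tested.

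Between the cytokines in CD8+ T cells, Rgs1 gave the widest difference of the set. It was 7.65-fold lower with IL-2-REH than with IL-2 at 90 min (904 against 7723 reads, log2 ratio -2.83), when 0.868% of all genes were past 2-fold, and it was the 1 member of 6 that was. At 4 hr, 3 of 6 were past 2-fold (2.23% of all genes). These were Rgs1 (5.30 against 28.4 RPKM, -2.23), Rgs2 (6.68 against 2.1, 1.31) and Rgs10 (79.8 against 37.9, 1.06, and 0.98 after centring). Rgs2 and Rgs10 at 90 min had log2 ratios of 0.76 and 0.41. With IL-2 from 90 min to 4 hr, 3 of 6 were past 2-fold, all lower (Rgs1, Rgs2 and Rgs10, 2.0% of all genes), and with IL-2-REH 0 of 6 were (1.89%). The difference between Tregs and CD8+ T cells in the response of Rgs1 was not tested, since CD8+ groups had 1 library each. The values were -0.47, -1.28 and -0.97 in the 3 Treg pairs and -2.83 in the CD8+ pair at 90 min.

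Levels differed between the cell types for some members and not for others. All 5 CD8+ values lay below all 15 Treg values for 3 of the 7 genes with a mean of at least 1 RPKM over all libraries (Rgs1, Rgs2 and Rgs16), and 7.24% of all 10457 such genes did so. With RPKM divided by TMM factors, this held for Rgs2 and Rgs16, whereas Rgs1 overlapped by a narrow margin (CD8+ up to 87.2, Tregs from 86.5). Rgs16 was 0.503 to 1.04 in CD8+ libraries (80 to 156 reads) and 10.03 to 102 in Tregs, and at the 5 conditions the Treg mean was 26.3 to 57.3 times the CD8+ value. For Rgs1 that ratio was 4.43 to 19.7, lowest with IL-2 at 90 min and highest with IL-2-REH at 4 hr. For Rgs2 it was 4.79 to 27.7, lowest in unstimulated cells and highest with IL-2 at 4 hr. Rgs10 was lower in the CD8+ library than in all 3 Treg libraries at 5 of 5 conditions, by less (1.28 to 1.94 times). Rgs19 went the other way, with 29.98 to 35.9 RPKM in CD8+ cells, above the 3 Treg values at 5 of 5 conditions, although its highest unstimulated Treg value of 34.5 was inside the CD8+ range. With TMM factors all 5 CD8+ values of Rgs19 (31.1 to 36.8) lay above all 15 Treg values (14.9 to 30.7). By RPKM without these factors, 2.74% of all 10457 genes had all CD8+ values above all Treg values. Shares of all genes with TMM factors or at single conditions are not given, so how common such counts are is not known. Rgs3 overlapped between the cell types, at 4.73 to 21.5 in Tregs and 5.61 to 14.9 in CD8+ cells. Rgs14 also overlapped (8.33 to 44.0 in Tregs, 6.81 to 22.1 in CD8+ cells), with the CD8+ value below the 3 Treg values at 4 of 5 conditions. The cell types came from different mice and purifications, so cell type and source cannot be told apart.

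The other genes of the pathway came from fixed lists. The list of other RGS genes held 20 genes, some of them not named Rgs. Of these, 15 passed the filter in Tregs, and edgeR called 0 in each of the 9 comparisons. The 12 tested G alpha subunit genes also gave 0 calls. Of 12 tested G beta and gamma subunit genes, Gng10 fell with IL-2 at 4 hr (-1.03, SE 0.236, edgeR adjusted p = 0.0388). Of 28 receptors, Cxcr5, which guides cells into B cell follicles, fell at 4 hr with IL-2 (-1.37, SE 0.258, edgeR adjusted p = 0.0159) and IL-2-REH (-1.40, SE 0.258, adjusted p = 0.0381). Gpr83, a receptor enriched in Tregs, rose with IL-2 at 4 hr (2.09, SE 0.484, edgeR adjusted p = 0.0397). The RPKM of Gpr83 in unstimulated replicates 1, 2 and 3 was 5.99, 53.4 and 37.5, so its fold change leans on the low replicate 1 value. With IL-2 at 4 hr it was 115, 168 and 95.6. Of 11 other regulators of the pathway, Gpsm2, a GoLoco protein that binds Gi alpha, was the 1 called, higher with each cytokine at each time. It was lower with IL-2-REH than with IL-2 at 90 min (-1.70, edgeR adjusted p = 0.00994) and at 4 hr (-1.37, adjusted p = 0.0429). For comparison, 5 of 13 listed STAT5 targets rose against unstimulated Tregs with IL-2 at 4 hr and 0 with IL-2-REH at 4 hr. Between the cytokines, edgeR called 0 of these 13 in Tregs at each time. Their median log2 fold changes of IL-2-REH relative to IL-2 were -0.70 at 90 min and -0.82 at 4 hr. Of 22 immediate early genes, 4 and 2 fell against unstimulated Tregs at 4 hr (IL-2 first, then IL-2-REH), among them Junb and Dusp1 with both. With the block, the STAT5 targets called higher at 4 hr were 7 and 3, with 1 called lower for each cytokine. The immediate early genes called lower with it were 5 and 6. The block also called 3 receptors lower with each cytokine at 4 hr, and 1 G beta or gamma gene higher with IL-2 at each time. The medians of the RGS set with IL-2 and IL-2-REH at 4 hr stand beside those of 2 lists. These were 0.07 and -0.07 for the list of other RGS genes and -0.59 and -0.53 for the immediate early genes. In CD8+ T cells, 0 of 8 counted genes on the list of other RGS genes were past 2-fold in any of the 8 comparisons. Of the genes named Rgs outside the set, only Rgs11 reached 1 RPKM in a CD8+ library (2.13 to 5.02). Likewise 0 of 7 G alpha genes were past 2-fold in any comparison, nor were any of 10 other regulators. Of 8 counted G beta and gamma genes, 0 to 2 were past 2-fold in a comparison. Immediate early genes lower past 2-fold against the unstimulated CD8+ library were 8 and 11 of 22 with IL-2 at 90 min and 4 hr. With IL-2-REH they were 10 and 12, and 3 and 1 were higher with each cytokine. Of 13 STAT5 targets, 10 were past 2-fold lower with IL-2-REH than with IL-2 at each time, and 0 were higher. Among 23 counted receptors, Gpr183, which guides lymphocytes by oxysterols, went from 38.6 RPKM unstimulated to 9.56 and 6.96 with IL-2 and 9.41 and 15.2 with IL-2-REH at 90 min and 4 hr. Cxcr4, the receptor of the chemokine Cxcl12, was past 2-fold against unstimulated cells with IL-2 at 4 hr alone (26.8 against 103 RPKM).

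The genes most alike in pattern were named for each member as a description, by Pearson correlation of log2(RPKM + 1) over the 20 libraries, which share cell type, cytokine and library effects. They were Phlda1 (r = 0.974), Plk2 (0.974) and Lag3 (0.958) for Rgs16, Socs3 (0.932), Ptger4 (0.910) and Csrnp1 (0.906) for Rgs1, and Selk (0.965) and H3f3b (0.956) for Rgs2. For Rgs3 they were Csk (0.940), Zmynd8 (0.931) and Ptpre (0.929), and for Rgs14 Txnrd2 (0.965), Grhpr (0.953) and Sh3glb2 (0.952). Rgs10 was most like Dtx4 (0.907), Acad9 (0.846) and Rab3ip (0.818), and Rgs19 most like Tmem229b (0.959), Cdk5rap1 (0.955) and Cwf19l1 (0.946). For Rgs18, with its few reads, they were Sp140 (0.885), Rreb1 (0.879) and H2-DMa (0.873).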

How the data were processed

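The authors mapped single-end RNA-seq reads to mm10 (GRCm38) with TopHat2 2.1.1 and Bowtie2 2.2.6, and deposited for each of 31682 RefSeq transcripts in every library the read count on its exons, not normalized, beside its RPKM. No pair of libraries held identical values (0 pairs). Counts of the transcript with the most reads per symbol were tested with edgeR 4.0.16 (TMM, filterByExpr, glmQLFit and glmQLFTest, 1 mean per group over 15 Treg libraries, 15009 genes), with Benjamini-Hochberg adjustment over all genes tested. CD8+ values are log2 ratios of RPKM with a pseudocount of 1, with no test. Alternatives were the replicate block, limma 3.58.1 (log2 of RPKM + 1), DESeq2 1.42.0, no filter, the longest transcript and leaving out replicates or libraries, and for CD8+ values other pseudocounts, folds and centring. Replicate numbers come from the sample titles. Over all genes, deviations of same-numbered libraries from their group means correlated at 0.121 to 0.839 in all 24 checks, so the numbers were taken as pairs. The fit was tested on simulated data first, with changes set for IL-2 at 4 hr against unstimulated Tregs. It recovered 36.2% of 196 changed genes (13.1% of 2-fold and 59.8% of 4-fold changes), and 6.58% of its 76 calls were false. A gene without a call may therefore still have changed. Genes named are the 8 members, the listed genes called or past 2-fold and the 3 genes most like each member, of which 1 is not reported here. Members and lists were chosen with earlier results of these data known. Sequences and coordinates are RefSeq's, on GRCm38.p6. Tables and figures were made with Python 3.11.15, pandas 2.3.3 and matplotlib 3.10.9.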

Additional observations from a re-analysis of the deposited data

Results flagged for a closer look

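Rgs3 differed in sign between the cell types at 90 min, with IL-2-REH set against IL-2. The log2 ratio of RPKM + 1 was -0.015 in the single CD8+ pair and 0.05, 0.23 and 0.28 in the 3 same-numbered Treg pairs, which were all higher with IL-2-REH. The difference was not tested, and the CD8+ ratio was 0.05 once centred on the median of all genes.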

How the results depend on the processing

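CD8+ groups of 1 library allowed no test, and Rgs18 was limited by its depth. In member counts, the replicate block gave 1 for IL-2 at 90 min and 2 for IL-2-REH at 4 hr against unstimulated cells, and it changed no call of the RGS genes beyond those given above. At 90 min DESeq2 called 2 for IL-2 and 1 for IL-2-REH, and it called 3 with IL-2-REH at 4 hr and 1 between the IL-2 times. Limma and the fit with no filter each called 1 with IL-2-REH at 4 hr, and the longest transcript left 1 with IL-2 at 4 hr. The cause was not tested for these. Leaving out replicates or libraries gave, at 90 min and 4 hr, 0 to 2 and 0 to 3 calls for IL-2, 0 to 4 and 0 to 4 for IL-2-REH, and 0 to 1 between the IL-2 times.

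Over all genes, the main counts at 90 min and 4 hr were 128 and 341 for IL-2, 14 and 47 for IL-2-REH, 2 and 4 between the cytokines and 0 and 0 between the times of IL-2 and of IL-2-REH. The block gave 275, 1038, 32, 455, 2, 10, 58 and 6 in that order, and DESeq2 gave 553, 996, 113, 565, 15, 58, 382 and 251. Limma gave 0 with IL-2-REH at 90 min, 25 with IL-2-REH at 4 hr, 0 and 0 between the cytokines and 3 between the IL-2 times, where the fit with no filter also gave 3. Leaving out replicates or libraries gave 0 to 2509, 3 to 1937, 0 to 2269, 0 to 1545, 0 to 1, 0 to 5, 0 to 625 and 0 to 574, and the highest of the first 4 came with all replicate 1 libraries left out.

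In CD8+ cells, a limit of 2 on the log2 ratio left 0, 1, 0 and 1 members against unstimulated cells (IL-2 at 90 min and 4 hr, IL-2-REH at 90 min and 4 hr), 1 between the cytokines at 4 hr and 0 between the IL-2 times. Centring left 2 with IL-2 at 4 hr, and a pseudocount of 0.1 gave 1 between the IL-2-REH times. Over all genes, main counts were 726, 472, 859, 612, 87, 223, 200 and 189. The pseudocount of 0.1 gave 1211, 759, 1363, 1048, 147, 371, 369 and 480, and the limit of 2 gave 49, 54, 56, 60, 7, 29, 8 and 5. Dividing RPKM by TMM factors put 1 member (Rgs19) above all Treg values in CD8+ cells, against 0, and left 2 below all Treg values, against 3 (Rgs1 overlapped).

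Signs turned for values near 0. Rgs10 with IL-2-REH at 90 min (0.004) was -0.018 with the block, -0.005 with DESeq2 and -0.105 with limma. With limma, Rgs2 with IL-2-REH at 4 hr was 0.141, and Rgs3 was 0.013 and 0.039 between the times of IL-2 and IL-2-REH. Rgs16 between the cytokines at 4 hr was 0.002 with the block and 0.056 with limma. Leaving out replicates or libraries turned 39 member values. Log2 fold changes then ran for Rgs2 from -0.835 to 0.612 and Rgs10 from -0.555 to 0.01 with IL-2 at 90 min against unstimulated cells. They ran for Rgs1 from -0.568 to 0.138, Rgs2 from -0.084 to 1.285 and Rgs10 from -0.213 to 0.31 with IL-2-REH at 90 min. They ran for Rgs2 from -0.729 to 0.639 and Rgs19 from -0.216 to 0.14 with IL-2-REH at 4 hr. They ran for Rgs14 from -0.053 to 0.203, Rgs16 from -0.355 to 0.288 and Rgs18 from -0.317 to 1.691 between the cytokines at 90 min. They ran for Rgs14 from -0.085 to 0.182, Rgs16 from -0.187 to 0.227 and Rgs19 from -0.043 to 0.356 between the cytokines at 4 hr. They ran for Rgs3 from -0.162 to 0.059, Rgs18 from -0.481 to 1.758 and Rgs19 from -0.071 to 0.216 between the IL-2 times. They ran for Rgs3 from -0.249 to 0.016 between the IL-2-REH times.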

Other observations

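Among genes outside the set, Rgs9 was at 1.81 to 11.99 RPKM in Tregs and 0.0619 to 0.434 in CD8+ libraries. Rgs11 was at 0.435 to 2.66 in Tregs and 2.13 to 5.02 in CD8+ libraries. Rgs7 had 0 reads in all 20 libraries.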
